A study of Caenorhabditis elegans with 9 samples.

Results

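The genes described here encode the precursors of FMRFamide-like peptides (*flp* genes) and neuropeptide-like proteins (*nlp* genes) of the nematode *Caenorhabditis elegans*. They were taken as every gene whose symbol in the array's annotation is flp- or nlp- followed by a number and which has a probe set assigned to that symbol alone. This gave 83 of 17118 named genes, 25 *flp* and 58 *nlp*, measured by 94 of 22625 probe sets. A further 2 probe sets, which share an *nlp* symbol with other symbols, were not used. The study grew worms in mCeHR-2, a liquid medium that holds no bacteria, with hemin, an iron-containing porphyrin that serves as heme source, at 4, 20 or 500 uM, and asked which transcripts respond to the heme supply. Larvae of the F2 generation were synchronized, moved into these media and collected as late L4 larvae, and total RNA of whole animals was hybridized to Affymetrix whole genome arrays. Each concentration had 3 biological replicates, A, B and C, with 1 array each, which gives 9 arrays. The 20 uM worms were the controls of the study. The medium and the stage were common to all groups, no other agent or mutation is named, and the sources used here do not give the strain.

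Both families are made as precursor proteins that travel through the secretory pathway. Proprotein convertases and carboxypeptidases cut the precursors, an amidating enzyme finishes many of the peptides, and dense core vesicles store and release them onto G protein-coupled receptors. In the worm the FMRFamide-like peptides act mainly between neurons and onto muscle, in locomotion, feeding, egg laying and sleep. The *nlp* genes are a more mixed family, named for precursors that are not FMRFamide-like or insulin-like. One of its branches, *nlp-24* to *nlp-34*, encodes glycine- and tryptophan-rich peptides, several of which are antimicrobial peptides of the epidermis that are switched on by fungal infection and wounding. In RNA of whole worms, fewer cells that express a gene and less of its RNA per cell cannot be told apart.

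All values are the deposited log2 expression values, a difference is a difference of group means on that scale, and SE is its standard error. The number of arrays, 3 per group, limits the precision: the median SE of a difference was 0.12 for either family. A gene was called when limma's adjusted p was below 0.05 over the 16911 probe sets tested, those not among the dimmest 25%. Of the members, 24 *flp* and 50 *nlp* genes were tested, each by its probe set with the highest mean. The whole table ran from 2.02 to 14.37, and the filter lay at 3.75. Signals of different probe sets are not compared with each other.

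The animals' neurons were represented in the RNA. Of 16 pan-neuronal genes 15 passed the filter, and their mean level lay between 7.0 and 7.15 on all 9 arrays, though *rgef-1*, a widely used neuronal marker, lay below the filter. One array stood apart, 4 uM replicate A: over all tested probe sets it correlated with the rest at a Spearman coefficient of 0.947 to 0.973, and the other 8 among themselves at 0.981 or more. It also had the lowest value of the 9 arrays for 28 of 50 *nlp* genes (56.0%) and 7 of 24 *flp* genes (29.2%), against 21.3% of all tested probe sets. The counts and medians of both families in comparisons with 4 uM hemin are therefore given with and without it, as are those of single genes in the cases stated.

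In the *flp* family 0 of 24 tested genes were called between any hemin concentrations, a count that the low call rates over all probe sets would also give. The values on each array sat close together: the median range of a gene over the 9 arrays was 0.43, and without 4 uM replicate A it was 0.35, against 0.51 and 0.39 for all tested probe sets. At 4 against 20 uM, where 0.911% of all tested probe sets were called, the differences of the family ran from -0.16 to 0.19 with a median of 0.10, and 0 genes had an unadjusted p below 0.05. Between 500 and 20 uM, where 0.242% of all were called, they ran from -0.07 to 0.24 with a median of 0.14, and 1 gene, *flp-18*, had an unadjusted p below 0.05. At 500 against 4 uM, where 2.07% of all were called, they ran from -0.18 to 0.34 with a median of 0.03 and 0 such genes. Over all 16911 tested probe sets 1472, 1124 and 2015 had an unadjusted p below 0.05 in the same order. The 95% confidence intervals of all 24 genes lay within -0.70 and 0.50, within -0.37 and 0.72, and within -0.48 and 0.88 in these comparisons, so no interval reached a log2 difference of 1 in either direction.

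**Figure D1:**
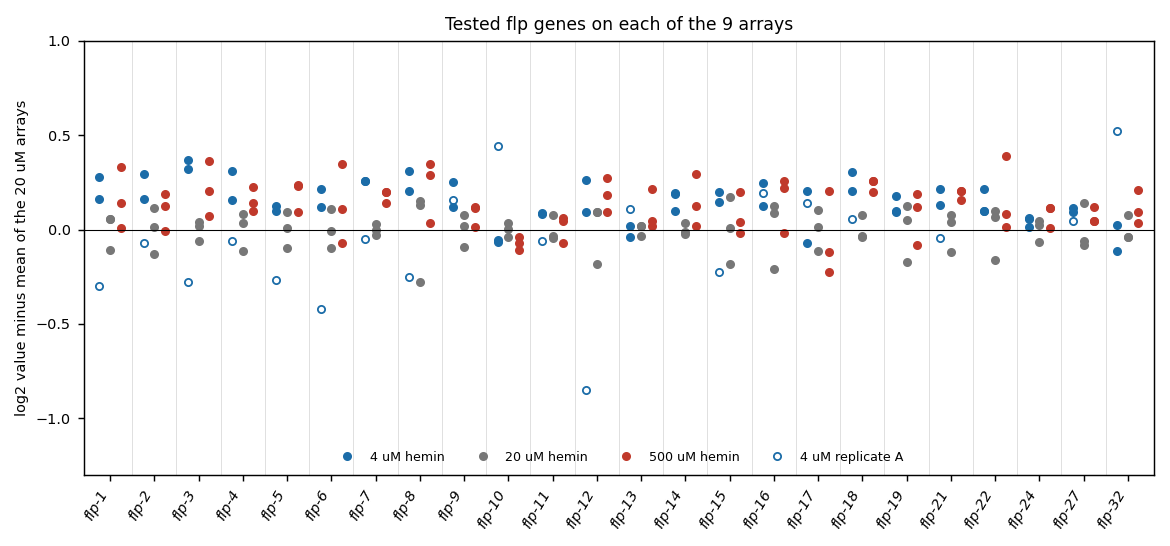
The 24 tested *flp* genes on the 9 arrays. The vertical axis is a gene's log2 value minus its mean over the 20 uM arrays, each point is 1 array, coloured by hemin concentration, and open circles are 4 uM replicate A. The deviation of that array from the mean of replicates B and C is -1.03 for *flp-12*, 0.50 for *flp-10* and 0.57 for *flp-32*.

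Most of these small differences had the same sign. The mean was higher at 4 than at 20 uM for 21 of 24 *flp* genes and higher at 500 than at 20 uM for 22 of 24, while 54.4% and 53.7% of all tested probe sets had a positive difference, with medians of 0.02 and 0.01. Both comparisons rest on the same 20 uM arrays, so they do not count as separate observations. On single arrays the median of the family, relative to each gene's mean at 20 uM, was 0.00, 0.12 and 0.16 on the 4 uM arrays, 0.02, -0.05 and 0.05 on the 20 uM arrays, and 0.12, 0.07 and 0.16 on the 500 uM arrays. Thus the 500 uM arrays were all above the 20 uM arrays, and 4 uM replicate A was not. The array 20 uM replicate B held the lowest value of 8 *flp* genes, and without it the median at 500 against 20 uM was 0.09. The 15 tested pan-neuronal genes had medians of 0.03 and 0.04 in the comparisons with 20 uM, with 10 of 15 positive in each, and their median on 20 uM replicate B was -0.08. Without 4 uM replicate A their median at 4 against 20 uM was 0.0011. The 26 tested genes of synapses and classical transmitters had medians of 0.01 at 4 and 0.11 at 500 against 20 uM. Of these genes 15 and 21 were positive, so the shift at 500 uM was not particular to the *flp* genes. The part of neuronal content in the medians of the family was not tested.

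Groups of 3 arrays that did not overlap at all were found for 2 *flp* genes at 4 against 20 uM, *flp-9* and *flp-14*, both higher at 4 uM, against 7.13% of all tested probe sets in that direction. Between 500 and 20 uM they were found for 6 genes, all higher at 500 uM, against a background of 9.04%. These 6 were *flp-3*, *flp-4*, *flp-7*, *flp-12*, *flp-18* and *flp-21*. Between 500 and 4 uM there were 0 in either direction, against 7.88% of all higher and 6.69% lower. For *flp-9* the arrays read 9.37, 9.33 and 9.47 at 4 uM, 9.12, 9.23 and 9.29 at 20 uM, and 9.33, 9.23 and 9.34 at 500 uM. For *flp-14* they read 6.66, 6.56 and 6.65, then 6.45, 6.44 and 6.50, then 6.48, 6.58 and 6.75 in the same order. In both the gap between the 4 and 20 uM arrays was small, and the differences of 0.18 (SE 0.08) and 0.16 (SE 0.10) were not called (adjusted p = 0.615 and 0.700).

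The peptides of *flp-18* and *flp-21* are ligands of the receptor NPR-1, which sets social feeding and the response to oxygen. The probe set of *flp-18* read 7.98, 8.12 and 8.22 on the 4 uM arrays, 7.88, 7.89 and 8.0 on the 20 uM arrays, and 8.18, 8.18 and 8.12 on the 500 uM arrays. Every 500 uM array was above every 20 uM array, and the 4 uM arrays reached down into the 20 uM range. The difference of 500 minus 20 uM was 0.24 (SE 0.09), which was not called (adjusted p = 0.640), and that of 4 minus 20 uM was 0.19 (adjusted p = 0.630), or 0.25 without 4 uM replicate A (adjusted p = 0.245). The values of *flp-21* were 7.01, 7.26 and 7.18 at 4 uM, 6.93, 7.13 and 7.09 at 20 uM, and 7.21, 7.26 and 7.25 at 500 uM. Here too the 500 uM arrays lay above the 20 uM arrays, by 0.19 in the mean (SE 0.10, adjusted p = 0.800).

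Among the peptides of sleep and arousal, *flp-11*, the sleep-inducing peptide gene of the neuron RIS, read 8.23, 8.37 and 8.38 at 4 uM, 8.25, 8.24 and 8.36 at 20 uM, and 8.33, 8.35 and 8.21 at 500 uM. All groups overlapped, and its range without 4 uM replicate A, 0.16, was among the 3 narrowest of the tested members. The gene *flp-13*, which drives sleep after cellular stress from the neuron ALA, read 7.43, 7.34 and 7.28, then 7.34, 7.28 and 7.34, then 7.36, 7.34 and 7.54 in the same order. The groups overlapped again, with differences of 0.03, 0.09 and 0.06 for 4 minus 20, 500 minus 20 and 500 minus 4 uM. Without 4 uM replicate A the first was -0.01 and the last 0.11. The gene *flp-24*, also of ALA, lay between 9.13 and 9.31 on all arrays.

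Of the genes with roles in movement and egg laying, *flp-1*, needed for normal locomotion, read 8.92, 9.38 and 9.49 at 4 uM, 9.27, 9.11 and 9.27 at 20 uM, and 9.55, 9.23 and 9.36 at 500 uM. Among the 4 uM arrays replicate A alone lay below the range of the 20 uM arrays. On the other probe sets of *flp-1* replicate A did not lie below that range. The 3 probe sets of *flp-1* had differences of 0.05 to 0.20 for 4 minus 20 uM and of 0.14 to 0.27 for 500 minus 20 uM. The genes *flp-10* and *flp-17* both inhibit egg laying, *flp-17* from the BAG neurons. For *flp-10* the 4 uM arrays read 7.77, 7.27 and 7.26, and the other 6 arrays lay between 7.21 and 7.36, so that replicate A alone was high. For *flp-17* the values were 5.67, 5.73 and 5.46, then 5.54, 5.63 and 5.41, then 5.30, 5.73 and 5.41, with full overlap. The gene *flp-7*, whose peptide links serotonin signals to fat loss in the intestine, read 6.92, 7.22 and 7.22 at 4 uM, 6.94, 6.96 and 6.99 at 20 uM, and 7.10, 7.16 and 7.16 at 500 uM. Its 500 uM arrays were all above its 20 uM arrays, by 0.18 in the mean (SE 0.10, adjusted p = 0.831).

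The *flp* value farthest below its own group was that of *flp-12* on 4 uM replicate A. That gene read 7.96, 8.90 and 9.07 at 4 uM, 8.89, 8.62 and 8.90 at 20 uM, and 8.98, 8.90 and 9.07 at 500 uM. Its difference of 4 minus 20 uM was -0.16 (SE 0.24) with all arrays and 0.18 (SE 0.11) without replicate A, and neither was called. Without that array the median difference of the *flp* family at 4 against 20 uM was 0.17, with 21 of 24 positive and 4 genes with an unadjusted p below 0.05, while without replicate B it was 0.05 and without 20 uM replicate B 0.06. Still 0 *flp* genes were called without 4 uM replicate A, where 1.86% of all tested probe sets were. There 1944 of all 16911 had an unadjusted p below 0.05, in place of 1472 with all arrays. The *flp* median at 500 against 4 uM became -0.03 without that array, with 8 of 24 positive in place of 14.

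In the *nlp* family 2 of 50 tested genes were called, in different comparisons, and both were lower at 500 uM hemin. The rates over all tested probe sets were 0.911%, 0.242% and 2.07% for 4 minus 20, 500 minus 20 and 500 minus 4 uM. At 4 against 20 uM 0 *nlp* genes were called, with 2 at an unadjusted p below 0.05, *nlp-25* and *nlp-99*. Hemin at 500 against 20 uM gave 1 call, *nlp-25*, and 500 against 4 uM gave 1, *nlp-33*, with 4 and 3 genes at an unadjusted p below 0.05. Over all 16911 tested probe sets 1472, 1124 and 2015 had such a p in the 3 comparisons. The 1 call of 50 at 500 against 4 uM was near the rate over all probe sets. Neither call outlasted the removal of most single arrays, as given below. The F-test over the 3 groups called 1 *nlp* gene, *nlp-25* (adjusted p = 0.0237), beside 1.62% of all tested probe sets. Differences ran from -0.59 to 0.27, from -0.63 to 0.33 and from -0.51 to 0.35 for 4 minus 20, 500 minus 20 and 500 minus 4 uM.

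**Figure D2:**
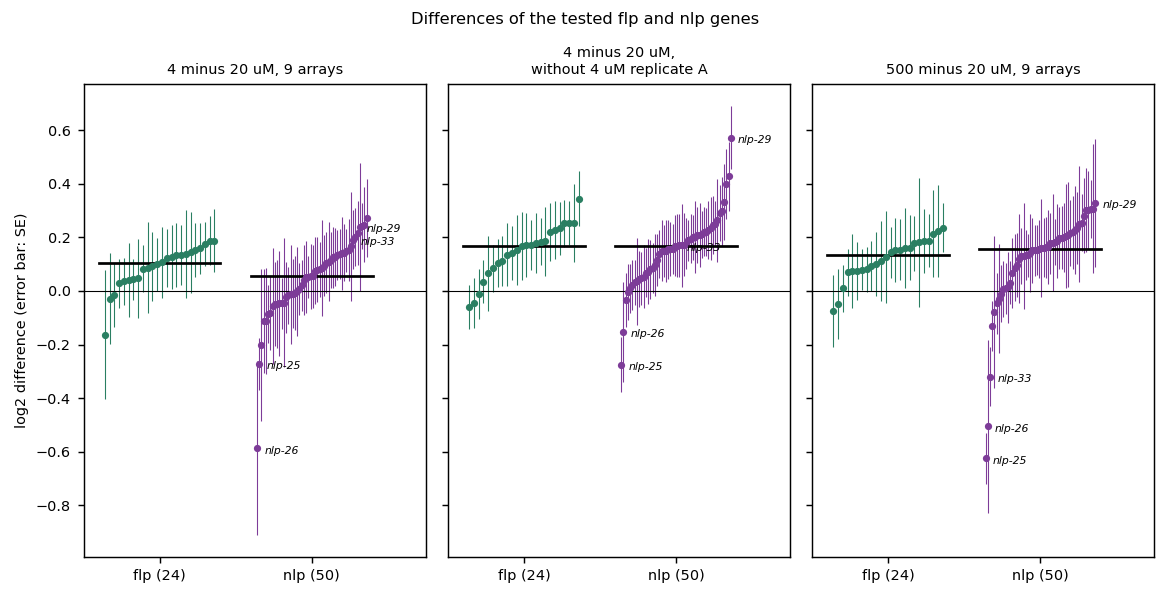
Differences of the tested *flp* and *nlp* genes on the log2 scale. Each point is 1 gene with its standard error, genes are sorted within a family, and the black line is the family's median. From 9 arrays the median at 4 against 20 uM was 0.10 for *flp* and 0.05 for *nlp*, without 4 uM replicate A it was 0.17 for each, and at 500 against 20 uM it was 0.14 and 0.16.

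The gene *nlp-25* belongs to the branch of glycine-rich peptides. It read 7.93, 7.92 and 7.92 on the 4 uM arrays, 8.16, 8.07 and 8.36 on the 20 uM arrays, and 7.61, 7.50 and 7.61 on the 500 uM arrays. The groups did not overlap in any comparison: 20 uM was highest, 4 uM lay between, and 500 uM was lowest. From 20 to 500 uM it fell by 0.62 (SE 0.10, adjusted p = 0.0355), a 1.54-fold lower value. The differences of 4 minus 20 uM, -0.27 (SE 0.10, adjusted p = 0.388), and of 500 minus 4 uM, -0.35 (SE 0.10, adjusted p = 0.130), were not called. The call did not outlast the removal of any array except 4 uM replicate A. Without 1 of the other 8 arrays the difference was -0.69 to -0.54 and the adjusted p was 0.0518 to 0.171, and without 4 uM replicate A it was 0.0173.

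The gene *nlp-33*, of the same branch, read 10.42, 10.45 and 10.27 on the 4 uM arrays, 10.19, 10.10 and 10.28 on the 20 uM arrays, and 10.08, 9.86 and 9.67 on the 500 uM arrays. The 500 uM arrays were below all others, while the 4 and 20 uM arrays overlapped. From 4 to 500 uM it fell by 0.51 (SE 0.11, adjusted p = 0.0457), a 1.43-fold lower value, and the difference of 500 minus 20 uM was -0.32 (adjusted p = 0.534). This call lay close to the threshold: it was lost without the filter on dim probe sets (adjusted p = 0.0534), after quantile normalization (0.0614) and on leaving out any array other than 4 uM replicate C or 500 uM replicate A, with adjusted p up to 0.178. The difference stayed between -0.62 and -0.41 on leaving out single arrays.

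In 7 others of this branch, *nlp-24* and *nlp-26* to *nlp-31*, 4 uM replicate A was the lowest of the 9 arrays. In the current gene table (assembly WBcel235) *nlp-31*, *nlp-30*, *nlp-29*, *nlp-28* and *nlp-27* follow each other with no other protein-coding gene between them. All 5 are measured by probe sets of the x_at type, which can bind transcripts of similar sequence, so that their values may share signal. The best known of them, *nlp-29*, a reporter gene for fungal infection and wounding of the epidermis, read 6.61, 7.57 and 7.66 at 4 uM, 7.26, 6.92 and 6.94 at 20 uM, and 7.44, 7.38 and 7.29 at 500 uM. Its replicate A at 4 uM was the lowest of all 9 arrays, its replicates B and C at 4 uM were the highest, and the 500 uM arrays were all above the 20 uM arrays. With all arrays 4 minus 20 uM was 0.24 (SE 0.24, adjusted p = 0.818). Without replicate A, *nlp-29* was higher at 4 than at 20 uM by 0.57 (SE 0.12, adjusted p = 0.0439), 1.49-fold. It was the 1 of 50 tested *nlp* genes called there, near the 1.86% of all tested probe sets. At 4 uM that difference rests on replicates B and C alone. Between 500 and 20 uM it differed by 0.33 (SE 0.24, adjusted p = 0.898).

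**Figure D3:**
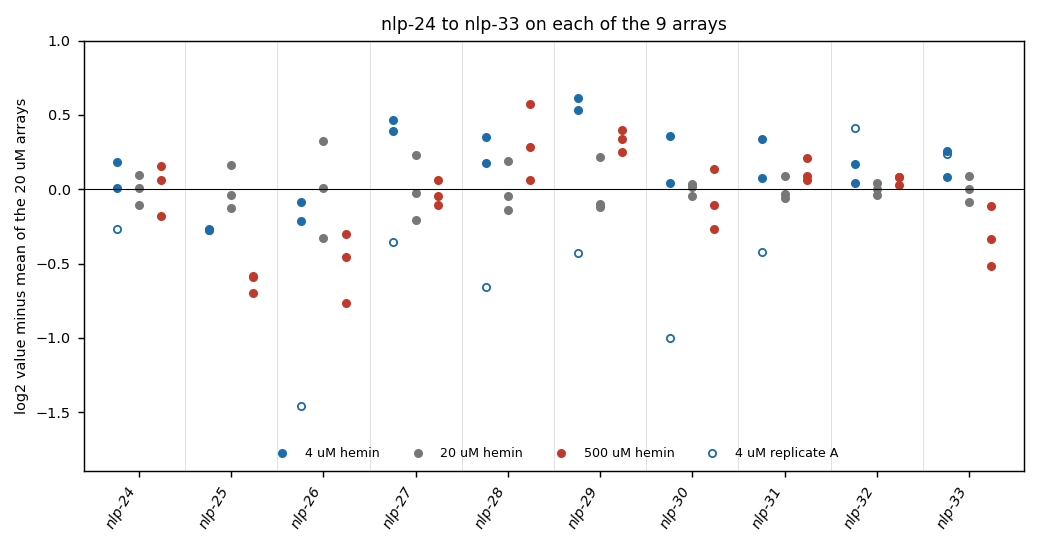
The genes *nlp-24* to *nlp-33* on the 9 arrays. The vertical axis is a gene's log2 value minus its mean over the 20 uM arrays, points are arrays coloured by hemin concentration, and open circles are 4 uM replicate A. For *nlp-26* to *nlp-31* the deviation of that array from the mean of replicates B and C is -1.31 to -0.63, for *nlp-25* and *nlp-33* it lies with its group, and *nlp-32* is below the filter on dim probe sets.

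Its neighbours showed the same low array. For *nlp-30* the 4 uM values were 6.76, 8.12 and 7.80, beside 7.77, 7.71 and 7.79 at 20 uM and 7.90, 7.49 and 7.65 at 500 uM. For *nlp-28* they were 6.37, 7.38 and 7.21, beside 7.22, 6.89 and 6.98 at 20 uM and 7.32, 7.60 and 7.09 at 500 uM. In both, replicate A at 4 uM was the lowest array and all groups overlapped. For *nlp-27* the values were 6.94, 7.77 and 7.69, then 7.53, 7.09 and 7.28, then 7.19, 7.36 and 7.26. For *nlp-31*, whose product has been shown to be antimicrobial, they were 7.90, 8.66 and 8.40, then 8.41, 8.27 and 8.29, then 8.53, 8.39 and 8.41. Again replicate A at 4 uM was lowest, replicate B was highest, and no difference was called. Without replicate A the differences of 4 minus 20 uM were 0.43 for *nlp-27*, 0.26 for *nlp-28*, 0.20 for *nlp-30* and 0.21 for *nlp-31*, in place of 0.17, -0.04, -0.20 and 0.00, and none was called.

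The widest spread of any member was that of *nlp-26*, a range of 1.78 over all arrays and 1.09 without 4 uM replicate A. It read 6.30, 7.54 and 7.67 at 4 uM, 8.08, 7.43 and 7.77 at 20 uM, and 7.0, 7.46 and 7.30 at 500 uM. The groups overlapped, and the differences from 20 uM of -0.59 (SE 0.33) at 4 uM and -0.51 (SE 0.33) at 500 uM were not called (adjusted p = 0.676 and 0.862). Without 4 uM replicate A the difference of 4 minus 20 uM was -0.15 (SE 0.19, adjusted p = 0.908). Over the 9 tested genes from *nlp-24* to *nlp-33* the median difference was -0.02 for 4 minus 20 uM, -0.03 for 500 minus 20 uM and 0.08 for 500 minus 4 uM, and without 4 uM replicate A it was 0.20, -0.03 and -0.28. The remaining pair was dim: *nlp-24* lay between 3.64 and 4.09, and *nlp-32*, which was not tested, between 2.54 and 2.99.

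Genes that mark the epidermis or its cycle were read beside this branch. Of 14 epidermal markers 0 were called in any comparison, with medians of -0.10, -0.05 and 0.01 for 4 minus 20, 500 minus 20 and 500 minus 4 uM. Without 4 uM replicate A 1 of them, the cuticle collagen gene *dpy-7*, was lower at 4 than at 20 uM (-0.52, SE 0.10, adjusted p = 0.0260), and the medians were -0.10, -0.05 and 0.16. Their mean level on the arrays was 8.99 to 9.30 at 4 uM, 9.25 to 9.34 at 20 uM and 9.06 to 9.23 at 500 uM. Of 8 caenacins, a related family of epidermal antimicrobial peptides, 4 were tested and 0 called. All 4 had a lower mean at 500 than at 20 uM, from -0.80 for *cnc-4* (adjusted p = 0.738) to -0.05 for *cnc-8*, and *cnc-2* read 3.94, 4.03 and 4.18 at 500 uM against 4.69, 4.48 and 4.38 at 20 uM (adjusted p = 0.170). Of 20 genes of the molting cycle 0 were called in any comparison, with medians of -0.10, -0.15 and -0.06, or -0.29, -0.15 and 0.03 without 4 uM replicate A. Only 3 of the 20 had a higher mean at 500 than at 20 uM. The mean level of the 20 was 8.28 to 8.49 at 500 uM, 8.56 to 8.58 at 20 uM and 8.38 to 8.60 at 4 uM. Between 500 and 20 uM 6 molting genes, 3 epidermal markers and 3 tested caenacins were lower without overlap, against 7.78% of all tested probe sets. In the same order 1, 1 and 0 were higher without overlap, against 9.04%. The differences of the epidermal markers there ran from -0.86 to 0.24. The part of epidermal content or of the molting cycle in the values of *nlp-25* and *nlp-33* was not tested.

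The 41 tested *nlp* genes outside this branch gave 0 calls in each comparison. Of all tested probe sets 0.911%, 0.242% and 2.07% were called for 4 minus 20, 500 minus 20 and 500 minus 4 uM. Such low rates would also give a count of 0 among 41 genes. Their differences ran from -0.11 to 0.27 for 4 minus 20 uM, from -0.13 to 0.31 for 500 minus 20 uM and from -0.15 to 0.35 for 500 minus 4 uM. Their medians were 0.08, 0.16 and 0.06. From 20 to 500 uM hemin, 38 of the 41 had a higher mean at 500 uM, against 53.7% of all tested probe sets. For the whole family of 50 the higher means were 31, 42 and 39 in the order of the comparisons, with medians of 0.05, 0.16 and 0.07. The first of these medians rested on single arrays: it was 0.17 without 4 uM replicate A, 0.0045 without replicate B and 0.0031 without replicate C.

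Groups that did not overlap were counted here as well. Between 500 and 20 uM 18 of 50 *nlp* genes had all 500 uM arrays above all 20 uM arrays, where 9.04% of all tested probe sets did, and 3 had them below, *nlp-25*, *nlp-33* and *nlp-57*, where 7.78% did. At 4 against 20 uM 4 genes were higher without overlap, *nlp-35*, *nlp-68*, *nlp-99* and *nlp-101*, and *nlp-25* was lower, against 7.13% and 6.23%. At 500 against 4 uM *nlp-1* and *nlp-49* were higher, and the same 3 as above were lower, against 7.88% and 6.69%. These counts describe small shifts, none of which was called other than those of *nlp-25* and *nlp-33*. The members share the 3 arrays of each group, so they do not count as separate observations. Relative to each gene's mean at 20 uM, the *nlp* median was 0.11, 0.17 and 0.15 on the 500 uM arrays. On the 20 uM arrays it was 0.02, -0.05 and 0.04.

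**Figure D4:**
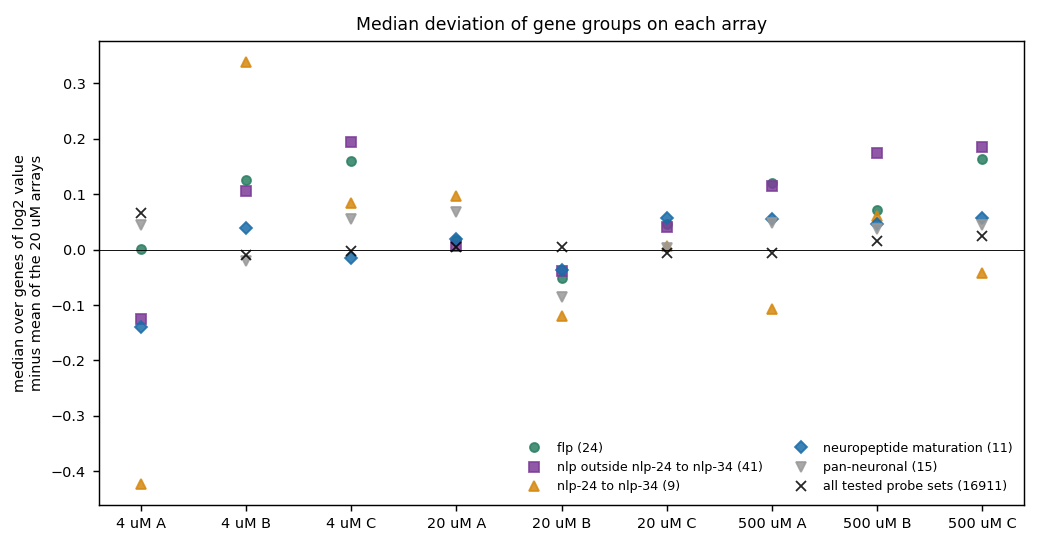
Median over the genes of a group of the log2 value minus the gene's mean over the 20 uM arrays, for each of the 9 arrays. Symbols are gene groups with the number of genes tested. On the 500 uM arrays the medians of *flp* genes and of *nlp* genes outside the *nlp-24* to *nlp-34* branch lie above those on the 20 uM arrays, and on 4 uM replicate A that branch lies at -0.42.

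The smallest unadjusted p among members that were higher at 500 uM belonged to *nlp-12*, a cholecystokinin-like gene of the stretch-sensitive neuron DVA that adjusts body bending. It read 7.83, 7.87 and 7.99 at 4 uM, 7.85, 7.58 and 7.65 at 20 uM, and 8.03, 7.85 and 8.12 at 500 uM. The lowest 500 uM array and the highest 20 uM array were both at 7.85, and the difference of 0.31 (SE 0.11) was not called (adjusted p = 0.570). The gene *nlp-49*, which stimulates locomotion, read 7.69, 7.75 and 7.79, then 7.39, 7.71 and 7.70, then 7.82, 7.80 and 7.94. All its 500 uM arrays were above the other 6, with a difference from 20 uM of 0.26 (SE 0.11, adjusted p = 0.688).

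At the low hemin level the smallest unadjusted p with a higher mean belonged to *nlp-99*, which read 7.50, 7.35 and 7.46 at 4 uM, 7.13, 7.24 and 7.21 at 20 uM, and 7.36, 7.40 and 7.37 at 500 uM. Its 20 uM arrays were the 3 lowest of the 9. The differences from 20 uM were 0.24 (SE 0.09, adjusted p = 0.388) at 4 uM and 0.18 (SE 0.09, adjusted p = 0.764) at 500 uM. The dimmer *nlp-67* read 4.25, 4.46 and 4.80, then 4.12, 4.15 and 4.43, then 4.51, 4.46 and 4.64, and *nlp-101* read 4.51, 4.62 and 4.65, then 4.47, 4.46 and 4.39, then 4.56, 4.62 and 4.56. In both the 500 uM arrays were above the 20 uM arrays without a call.

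Further named members were not called in any comparison. The intestinal peptide gene *nlp-40*, which times the defecation motor program, read 10.57, 10.25 and 10.26 at 4 uM, 10.08, 10.36 and 10.26 at 20 uM, and 10.43, 10.31 and 10.45 at 500 uM, with overlapping groups. The gene *nlp-8*, which acts with *flp-13* in sleep after stress, read 6.31, 6.93 and 7.23, then 6.78, 6.92 and 6.91, then 7.10, 7.20 and 6.94, with 4 uM replicate A the lowest of the 9 and the 500 uM arrays above the 20 uM arrays. The gene *nlp-1*, a peptide of the olfactory neuron AWC, read 6.84, 6.84 and 6.91, then 6.86, 6.91 and 6.96, then 7.0, 6.96 and 7.22, with the 500 uM arrays above the other 6 before rounding. The gene *nlp-16* read 6.33, 6.65 and 6.53, then 6.55, 6.52 and 6.59, then 6.59, 6.74 and 7.23, with 500 uM replicate C far above the rest. Its difference of 500 minus 4 uM was 0.35 (SE 0.16, adjusted p = 0.419), or 0.27 without 4 uM replicate A. On its other probe set 500 uM replicate B, at 6.42, was the highest array, and 500 minus 4 uM was 0.23. The gene *nlp-5* read 5.17, 5.48 and 5.45, then 5.48, 5.40 and 5.48, then 5.66, 5.48 and 5.69, and 500 minus 4 uM was 0.24 (SE 0.11, adjusted p = 0.418), or 0.14 (SE 0.09, adjusted p = 0.678) without 4 uM replicate A.

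The low values of 4 uM replicate A were widespread among *nlp* genes. There 39 of 50 *nlp* and 17 of 24 *flp* genes were below the mean of replicates B and C, against 40.03% of all tested probe sets. By more than 0.5 it was lower in 13 *nlp* genes (26%) and 5 *flp* genes (20.8%), against 7.72% of all, and higher in 0 and 2, against 11.9% of all. Of these 5, *flp-1* and *flp-8* deviated by only -0.52 and -0.50. The other probe sets of *flp-1* deviated by 0.01 and -0.17, and that of *flp-8* by -0.14. For *flp-19* the probe set used deviated by -0.04 and the other by -0.66. Besides the epidermal branch and *flp-12*, the largest shortfalls were those of *nlp-80* (-0.91), *nlp-53* (-0.81), *nlp-47* (-0.78) and *nlp-8* (-0.76). The genes *flp-10* (0.50) and *flp-32* (0.57) deviated upward. Without this array 46 of 50 *nlp* genes had a higher mean at 4 than at 20 uM in place of 31, with a median of 0.17, against 46.9% of all tested probe sets. At 500 against 4 uM 23 were positive in place of 39, against 57.9% of all. The median was -0.02, and 0 were called, where 2.34% of all were. For 500 against 20 uM the means do not involve the array, and 1 *nlp* gene was called, *nlp-25*, where 1.08% of all were. There 16 *nlp* genes had an unadjusted p below 0.05 in place of 4. Over all 16911 tested probe sets 2252 did in place of 1124.

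On the same array the pan-neuronal median was 0.04 and the molting median 0.14, the latter against -0.22 and -0.32 on replicates B and C. The 3 measured genes of 5 adult collagens, which mark the passage to adulthood, had mean levels of 9.68, 8.90 and 7.91 on the 4 uM arrays, 7.79, 8.40 and 8.44 on the 20 uM arrays and 7.54, 7.03 and 7.77 on the 500 uM arrays. Replicate A at 4 uM was highest. Whether stage has a part in the values of the neuropeptide genes on this array, or in their differences between the groups, was not tested.

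The machinery that makes and releases the peptides gave 0 calls as well, with or without 4 uM replicate A. Of 12 listed genes of neuropeptide maturation 11 were measured, and their medians were -0.05, 0.04 and 0.08 for 4 minus 20, 500 minus 20 and 500 minus 4 uM, or 0.01, 0.04 and 0.05 without that array. The main convertase gene, *egl-3*, read 9.39, 9.63 and 9.58 at 4 uM, 9.68, 9.29 and 9.60 at 20 uM, and 9.82, 9.43 and 9.72 at 500 uM. The carboxypeptidase gene *egl-21* read 9.68, 9.83 and 9.75, then 9.62, 9.73 and 9.76, then 9.76, 9.90 and 9.73. Both overlapped in all groups. The gene *sbt-1*, whose product is the chaperone of the EGL-3 convertase, read 8.01, 9.54 and 9.58 at 4 uM, 9.49, 9.40 and 9.51 at 20 uM, and 9.61, 9.53 and 9.69 at 500 uM. Replicate A at 4 uM deviated by -1.55 from the mean of replicates B and C, farther than in any tested *flp* or *nlp* gene, and the 500 uM arrays were above the 20 uM arrays. The amidating enzyme gene *pgal-1* was lower on that array too, at 9.19 against 9.92 and 9.89.

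**Figure D5:**
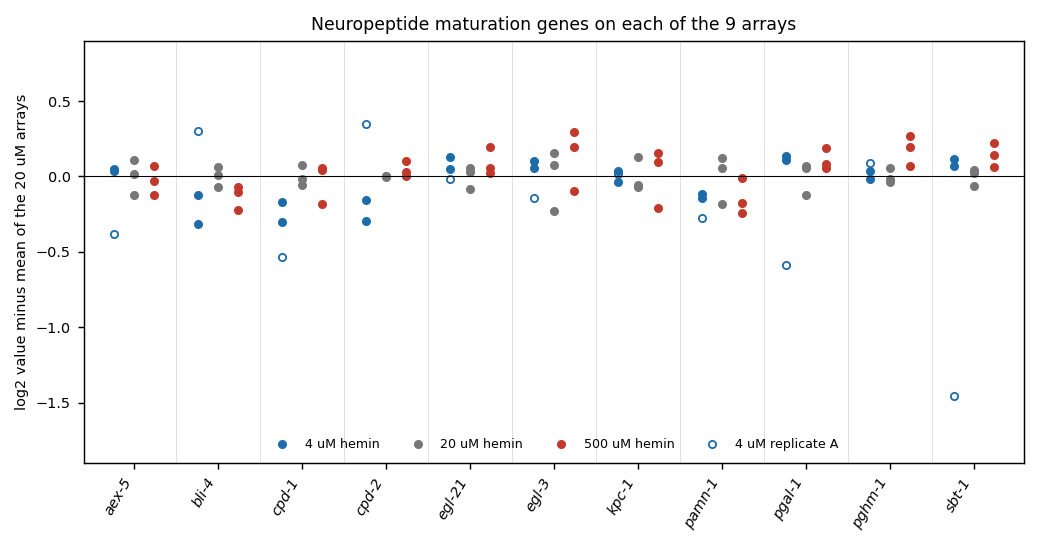
The 11 measured genes of neuropeptide maturation on the 9 arrays. The vertical axis is the log2 value minus the gene's mean over the 20 uM arrays, points are arrays coloured by hemin concentration, and open circles are 4 uM replicate A. The open circles of *sbt-1* and *pgal-1* deviate by -1.55 and -0.71 from the mean of replicates B and C, and those of *bli-4* and *cpd-2* by 0.52 and 0.57.

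For the others of the list, too, differences were not called. The carboxypeptidase D gene *cpd-1* had the smallest unadjusted p, at 6.20, 6.56 and 6.43 on the 4 uM arrays against 6.81, 6.71 and 6.67 on the 20 uM arrays, without overlap (difference -0.33, SE 0.12, adjusted p = 0.386, and -0.23 without 4 uM replicate A). The amidation genes *pghm-1* and *pamn-1* differed by 0.18 and -0.14 at 500 against 20 uM, the convertase genes *bli-4*, *kpc-1* and *aex-5* by -0.13, 0.01 and -0.03, and *cpd-2* by 0.04. Of 15 measured genes of dense core vesicles 14 were tested and 0 called, with medians of -0.01, 0.04 and 0.06 (4 minus 20, 500 minus 20 and 500 minus 4 uM), or 0.02, 0.04 and 0.02 without 4 uM replicate A. Of 101 measured neuropeptide receptor genes 76 were tested and 0 called, with medians of 0.03, 0.10 and 0.07, or 0.04, 0.10 and 0.08 without that array. In the comparison of 500 with 20 uM 63 of the 76 had a higher mean at 500 uM, and the smallest unadjusted p was that of *gnrr-1*, at 0.27 (SE 0.08, adjusted p = 0.412).

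Of 5 tested neuropeptide genes of other families 0 were called, and all 5 had a higher mean at 500 than at 20 uM. These were *pdf-1*, *pdf-2*, *snet-1*, *capa-1* and *lury-1*, with differences of 0.07 to 0.23. Of the 15 tested pan-neuronal genes 0 were called. The 26 genes of synapses and classical transmitters had medians of 0.01, 0.11 and 0.10 in the order of comparisons used above. Of them 1 was called, *tbh-1*, the octopamine-making enzyme, at 500 against 4 uM, where 2.07% of all tested probe sets were. This gene was lower by 0.58 at 500 uM (SE 0.12, adjusted p = 0.0318). It read 6.28, 6.13 and 6.16 at 4 uM, 5.46, 5.68 and 5.75 at 20 uM, and 5.54, 5.49 and 5.79 at 500 uM, with the 4 uM arrays above all others. Without 4 uM replicate A the difference was -0.54 and was no longer called (adjusted p = 0.0530). For markers of the remaining tissues, 0 of 11 tested muscle genes, *nos-2* of 15 germline genes, *cpr-5* of 11 tested intestinal genes and *col-19* of the 3 adult collagens were called. Each of these 3 genes was higher at 4 than at 20 uM and lower at 500 than at 4 uM. In these comparisons 0.911% and 2.07% of all tested probe sets were called. At 4 against 20 uM 10 of 15 germline genes, 9 of 11 intestinal genes and 1 of 3 adult collagens had a higher mean. Their medians were 0.06, 0.07 and -0.17, and without 4 uM replicate A that of the adult collagens was -0.80. The 1 adult collagen with a higher mean, *col-19*, differed by 2.28, or 2.25 without that array. At 500 against 4 uM *col-19* differed by -2.50, and the medians of these 3 lists were -0.12, -0.01 and -0.99. At 500 against 20 uM the medians were -0.05, 0.07 and -0.91, and 0 of 3 adult collagens had a higher mean.

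Where a gene had several probe sets, they set a limit on how finely the small differences can be read. This held for 9 members, *flp-1* and *flp-15* with 3 probe sets each and *flp-2*, *flp-8*, *flp-19*, *nlp-6*, *nlp-9*, *nlp-16* and *nlp-99* with 2. The sign differed among the probe sets of a gene in 2 of 9 genes at 4 against 20 uM, in 1 of 9 at 500 against 20 uM and in 5 of 9 at 500 against 4 uM. For *nlp-6* the differences of 4 minus 20 uM were -0.08 and 0.16, and for *flp-19* they were -0.14 and 0.12.

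The 9 members below the filter were *flp-23*, *nlp-2*, *nlp-22*, *nlp-23*, *nlp-32*, *nlp-39*, *nlp-45*, *nlp-60* and *nlp-90*. Without detection calls, no level above background can be stated for them. The gene *nlp-22*, a sleep peptide gene of the RIA neurons that cycles with the larval molts, read 3.76, 3.48 and 3.38 at 4 uM, 3.53, 3.48 and 3.58 at 20 uM, and 3.49, 3.52 and 3.81 at 500 uM, with overlapping groups. In the current gene table *nlp-45*, *nlp-22*, *nlp-23* and *nlp-2* are consecutive protein-coding genes, and all 4 were below the filter. The gene *nlp-2* read 4.01 on 4 uM replicate A and 3.10 to 3.42 on the other 8 arrays.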

How the data were processed

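The authors deposited log2 expression values, 1 for each probe set on each array. These values look normalized between arrays, but the median of 4 uM replicate A was 5.58 and those of the other arrays 5.45 to 5.48. MAS5 and RMA are named, with no version, in the submitters' processing notes. The sources used here do not give which of them made the table or with what background correction. Such summarised values can compress differences of dim probe sets. Scanner files and detection calls were not used here.

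Of 22625 probe sets 77 controls were left out, and the dimmest 25% of the rest by mean over the arrays, which left 16911. A model with 1 mean per concentration was fitted to all 9 arrays with limma 3.58.1 (R 4.3.3, trended prior, 6 residual degrees of freedom), two-sided, with Benjamini-Hochberg adjustment within a contrast over all probe sets tested. The fit was also run on simulated data with noise drawn independently for each value. That run held no shift shared by many genes of an array, so it does not cover a deviation like that of 4 uM replicate A. Python 3.11.15 with pandas 2.3.3 and matplotlib 3.10.9 served for counts and plots.

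Groups and letters came from the labels, and the series' design text calls the 3 samples of a concentration biological replicates. All 83 symbols matched a current gene table (WBcel235) by Entrez identifier, and 0 had changed. That table lists 31 *flp* and 78 *nlp* genes. It was used for names and gene order only, and no sequences were used here.

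Members, lists and tests were chosen with earlier results of these data known. Named members were those called, the 5 with the smallest p per family and contrast, *nlp-24* to *nlp-34*, those with several probe sets and 11 with well known roles. Also named were the maturation genes and up to 4 genes of each other list. The lists covered maturation, dense core vesicles, receptors, other neuropeptides, synapse and neurotransmitter, caenacins, and markers of neurons, epidermis, intestine, muscle, germline, molting and adult collagens. Same-lettered arrays of different concentrations had deviations correlated at -0.15 to 0.29, over 0.1 in 4 of 9 pairs, so the letters were not taken as pairing the samples.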

Additional observations from a re-analysis of the deposited data

How the results depend on the processing

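The number of *flp* genes called was 0 under every alternative run. For *nlp* genes the count at 4 against 20 uM was 0 to 1 on leaving out each array, with the 1 (*nlp-29*) without 4 uM replicate A. At 500 against 20 uM it was 0 with the replicate block, in which the letter is a term of the fit, and 0 to 1 on leaving out each array, the 1 (*nlp-25*) only without 4 uM replicate A. At 500 against 4 uM it was 0 without the filter, after quantile normalization, with arrays centred on the median, without the variance trend, with the replicate block and from the 6 arrays of the contrast, and 0 to 1 on leaving out each array. The adjusted p with the block was 0.0696 for *nlp-25* at 500 against 20 uM and 0.0637 for *nlp-33* at 500 against 4 uM. The probe sets called over the whole table, 154, 41 and 350 for 4 minus 20, 500 minus 20 and 500 minus 4 uM and 274 by the F-test, became 148, 31, 321 and 236 with the block and 86, 203 and 159 from the 6 arrays of each contrast. On leaving out each array they were 69 to 315, 8 to 182, 168 to 682 and 146 to 507. For the 500 minus 20 contrast the most came without 4 uM replicate A (182) and the fewest without 500 uM replicate B (8).

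Of 1929 repeats of 114 differences of named genes 1906 stayed on their side of the threshold, 22 lost the call and 1 gained it. All 22 losses fell on the differences that had been called, *nlp-25* at 500 against 20 uM and *nlp-33* at 500 against 4 uM. The other differences had no call to lose. The sign changed in 77 repeats, 25 of them without 4 uM replicate A. Of 114 repeats of the 6 family medians 2 changed sign, both without that array (500 minus 4 uM, -0.03 for *flp* and -0.02 for *nlp*), and the sign was kept after quantile normalization and centring. The size was not: with arrays centred on the median the 4 minus 20 median went from 0.10 to 0.06 for *flp* and from 0.05 to 0.0092 for *nlp*, and that of 500 minus 4 from 0.03 to 0.06 and from 0.07 to 0.10. On leaving out each array the 4 minus 20 median was 0.05 to 0.17 for *flp* and 0.0031 to 0.17 for *nlp*, and that of 500 minus 4 was -0.03 to 0.06 and -0.02 to 0.16. The alternatives without x_at probe sets and with all probe sets of a gene averaged were chosen after seeing the data. Precision is limited by 3 arrays per group, and levels of dim members by the lack of detection calls.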
